A study of Mus musculus with 6 samples.

Results

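The 9 genes described here carry out iron uptake, storage and export and were chosen by name from the 56748 genes of the count table. They are *Tfrc*, *Steap3*, *Slc11a2* and *Slc11a1*, which take iron up or move it out of vesicles, *Fth1* and *Ftl1*, which encode ferritin, *Slc40a1* and *Cp*, which serve export, and the regulator *Ireb2*. All 9 were found in the table and all 9 had enough counts to be tested. Bulk RNA was sequenced from 6 cultures of mouse long-bone cells isolated as osteocytes, 3 from WT mice and 3 from mice whose label is cKO, that is, *Gsdmd* fl/fl mice carrying DMP1-Cre. *Gsdmd* encodes gasdermin D, the pore-forming protein of pyroptosis, and the DMP1 promoter is meant to restrict Cre to osteocytes. The methods describe isolation from 7-week-old C57BL/6 mice by trypsin, collagenase and EDTA digestion of flushed bone, and the cells were cultured for 7 days. Every culture, WT included, was stimulated, first for 3 h with LPS (10 ng/mL) and then for 3 h with aluminum hydroxide (20 µg/mL), and no unstimulated library was analysed here. The labels do not say whether the 3 libraries of a genotype came from separate mice, and p-values then measure only the spread between these libraries.

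Iron enters most cells bound to transferrin, through the transferrin receptor encoded by *Tfrc*. In the endosome, ferric iron is reduced by Steap3 and leaves through the divalent metal transporter encoded by *Slc11a2*. *Slc11a1* (Nramp1) encodes the related transporter of phagosomes and is known from macrophages, which recycle iron and withhold it from microbes. Iron that is not used is stored in ferritin, a shell of heavy (*Fth1*) and light (*Ftl1*) chains, and leaves the cell through ferroportin, the product of *Slc40a1*, with the ferroxidases ceruloplasmin (*Cp*) and hephaestin (*Heph*) oxidizing it on the way. Iron-regulatory proteins, one of them encoded by *Ireb2*, bind stem-loops named iron-responsive elements in the mRNAs of several of these genes. In the 5' UTR this binding blocks translation, and in the 3' UTR of *Tfrc* it stabilizes the mRNA. A count of mRNA therefore does not give the amount of ferritin or ferroportin protein.

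The deposited values are raw counts, and their totals were 39566835 to 49734046 per library. Levels are given as counts per 1000000 (CPM) of library size scaled by edgeR's TMM factors. *Gsdmd* had 549 to 699 counts in WT libraries and more, 885 to 1045, in those labelled cKO, the opposite of what a loss of its mRNA would give. These counts cover the whole gene and do not separate the exons that Cre removes, so the deletion was not tested. Each group is called by its label, and each direction rests on it. *Xist* had at most 4 counts in WT but 44817 to 51216 in the other group, and the Y-linked *Ddx3y* had 4033 to 5455 counts in WT and 0 in the other group, so that genotype and sex cannot be told apart. Of the osteocyte markers, *Sost* was at 0 counts in all 6 libraries. This allows up to 0.0758 CPM if counts are independent, and more if both reads of a pair were counted. *Dmp1* and *Mepe* were counted at most 6 and 2 times. *Pdpn* was at 226 to 240 CPM in WT and 189 to 195 CPM in the libraries labelled cKO. Its log2 fold change was -0.28 (edgeR adjusted p = 2.99e-05). Of 3 tested osteocyte markers, 0 were higher and 2 lower, beside 20.1% and 19.2% of all tested genes. The other lower marker was *Ptprz1*, with at most 62 counts in a library. Of 16 macrophage markers, 15 were tested and all 15 were higher in the libraries labelled cKO, beside 20.1% of all tested genes. Their median log2 fold change was 3.01. *Csf1r*, the receptor that defines the macrophage lineage, was at 24.8 to 28.0 CPM in WT and 227 to 243 CPM in the libraries labelled cKO. Of the 7 erythroid markers, 6 had 0 counts in every library and *Alas2* had at most 2 counts, so red-cell precursor transcripts were hardly detectable at this depth. In bulk RNA, more cells of a type and more RNA per cell cannot be told apart, and this holds for every value that follows.

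The iron-responsive element carries the regulation that these genes are known for, and its letters are shown for the genes in which they were found. Transcripts of the 9 genes (GENCODE M39, genome build GRCm39, the build the labels name) were searched on the transcript strand for CNNNNNCAGTGN followed by 5 bases that pair with the 5 bases before the loop, G to U pairs allowed. The pattern was found 7 times in 4 of the 9 genes. The sequences run 5' to 3' in the direction of the transcript, and the capitals mark the 6 bases of the loop.
Slc40a1: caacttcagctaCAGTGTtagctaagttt
Fth1: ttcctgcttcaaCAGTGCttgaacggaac
Ftl1: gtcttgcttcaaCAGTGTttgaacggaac
Tfrc site 1: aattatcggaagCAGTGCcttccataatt
Tfrc site 2: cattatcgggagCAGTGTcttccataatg
Tfrc site 3: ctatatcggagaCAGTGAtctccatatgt
Tfrc site 4: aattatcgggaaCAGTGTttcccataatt
The sites of *Slc40a1* (chr1:45964625-45964653, minus strand), *Fth1* (chr19:9960096-9960124, plus strand) and *Ftl1* (chr7:45109203-45109231, minus strand) lie in the 5' UTR, in exon 1. The 4 sites of *Tfrc* lie in the 3' UTR, in exon 19, between chr16:32450037-32450065 and chr16:32450528-32450556 on the plus strand. Among the canonical transcripts of all protein-coding genes, 0.115% of 5' UTRs and 0.599% of 3' UTRs held the pattern. No match was found in *Slc11a2*, *Slc11a1*, *Cp*, *Ireb2* or *Steap3*, which says only that these letters, fully paired, are not in their annotated UTRs. Of the 4 genes with a match, *Slc40a1*, *Fth1* and *Ftl1* were higher in mRNA level in the libraries labelled cKO, and *Tfrc* did not pass the test.

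Of the 9 genes, 7 were higher in the libraries labelled cKO and 0 lower at an adjusted p below 0.05 (edgeR's quasi-likelihood test, Benjamini-Hochberg adjusted over the 17146 genes that pass its filter on low counts), while 20.1% of all tested genes were higher and 19.2% lower. The 7 were *Slc11a1*, *Slc40a1*, *Steap3*, *Ftl1*, *Fth1*, *Cp* and *Slc11a2*. With a log2 fold change of at least 1 also required, 3 of the 9 were higher, namely *Slc11a1*, *Slc40a1* and *Steap3*, and 0 lower, against 6.56% and 4.64% of all tested genes. The median log2 fold change of the 9 was 0.73, beside 0.0077 over all tested genes. *Tfrc* and *Ireb2*, the genes that did not pass, had unadjusted edgeR p-values of 0.068 and 0.169, so that 0 members were lower at an unadjusted p below 0.05, and DESeq2 also called 7 higher and 0 lower. For 8 of the 9 genes every library labelled cKO lay above every WT library in CPM, beside 25.3% of all tested genes (49.2% did not overlap in one direction or the other), and the exception was *Ireb2*.

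**Figure D1:**
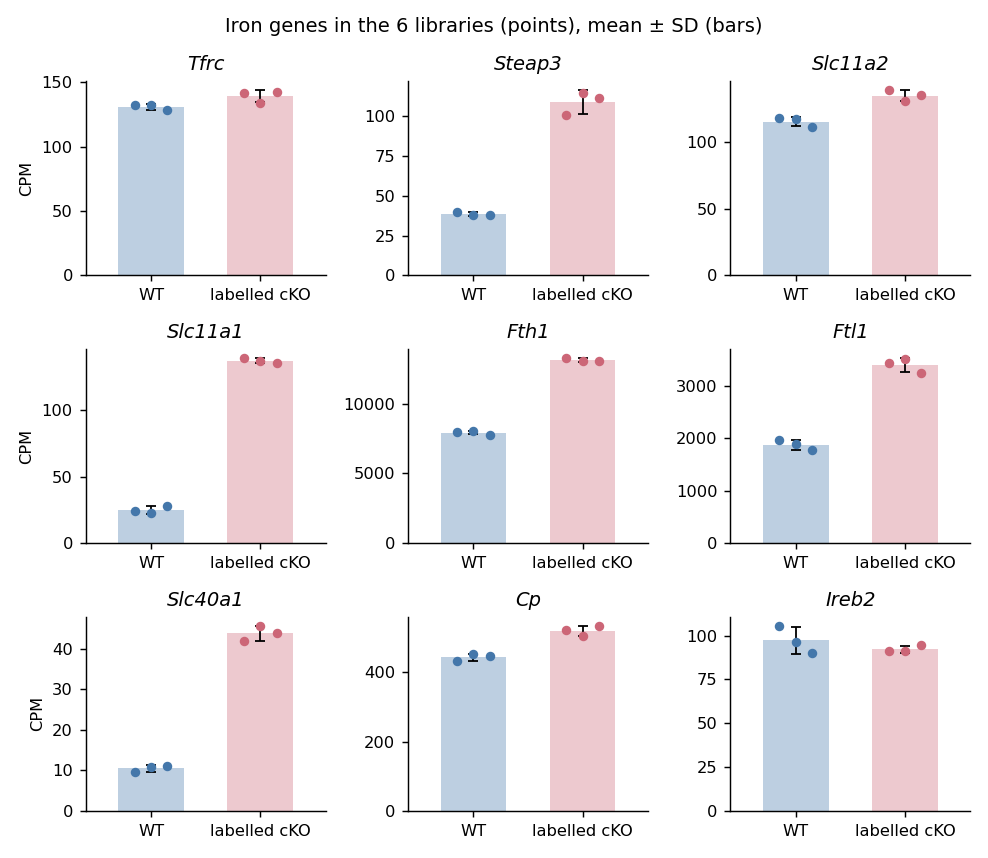
CPM (linear axis from 0, own scale per gene) of the 9 iron genes in the 3 WT libraries (blue) and the 3 libraries labelled cKO (red); points are libraries, and bars with whiskers are the mean ± SD. *Slc11a1*, *Slc40a1* and *Steap3* stand well apart between the genotypes, whereas *Tfrc* and *Ireb2* lie close together.

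*Tfrc* (chr16:32427738-32451612 of mm39), the receptor for transferrin-bound iron, was at 132.5, 132.2 and 128.3 CPM in WT and at 141.3, 133.7 and 142.1 CPM in the libraries labelled cKO. Every library labelled cKO was above every WT library, but the lowest of them lay closer to the highest WT library than the SD of either group (2.33 and 4.61 CPM, n = 3 each). The log2 fold change was 0.09 (95% interval -0.0071 to 0.18) and did not pass (edgeR adjusted p = 0.139), so a rise larger than 0.18 on the log2 scale lies outside that interval.

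*Steap3* (chr1:120118487-120200435), the endosomal ferrireductase, was at 39.7, 38.0 and 37.8 CPM in WT and at 100.6, 114.7 and 111.4 CPM in the libraries labelled cKO. The groups were far apart relative to their spread. Its log2 fold change was 1.50 (standard error 0.056, edgeR adjusted p = 4.36e-13), a 2.83-fold difference.

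*Slc11a2* (chr15:100285779-100322953), the transporter that passes endosomal iron to the cytosol, was at 117.8, 117.1 and 111.1 CPM in WT and at 138.7, 130.5 and 134.9 CPM in the libraries labelled cKO. The groups did not overlap, and the difference was small, with a log2 fold change of 0.22 (standard error 0.045, edgeR adjusted p = 0.000688). Its paralog *Slc11a1* (chr1:74414354-74425221), known as a metal ion transporter of the macrophage phagosome, was measured here as mRNA only, and transport was not tested. *Slc11a1* was at 24.0, 22.6 and 28.1 CPM in WT and at 139.3, 137.2 and 135.7 CPM in the libraries labelled cKO. This was the largest change among the 9 genes, a log2 fold change of 2.47 (standard error 0.066, edgeR adjusted p = 5.4e-15) or 5.53-fold. In CPM, *Slc11a1* was below *Slc11a2* in every WT library, whereas the ranges of the paralogs overlapped in the libraries labelled cKO. Per kilobase of the deposited gene length, *Slc11a1* was at 0.371 ± 0.054 of the level of *Slc11a2* in WT and at 1.75 ± 0.046 of it in the libraries labelled cKO (SD, n = 3 each). The value above 1 rests on those lengths, 3705 bases for *Slc11a1* and 6354 for *Slc11a2*.

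*Fth1* (chr19:9957962-9962462), the ferritin heavy chain with ferroxidase activity, was among the most counted genes of these cells. It was at 8007, 8033 and 7785 CPM in WT and at 13287, 13043 and 13098 CPM in the libraries labelled cKO. By counts it ranked 6, 6 and 7 among all genes in the WT libraries and 2 in each library labelled cKO. Its log2 fold change was 0.73 (standard error 0.025, edgeR adjusted p = 1.37e-13), the smallest standard error of the 9 genes.

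*Ftl1* (chr7:45107368-45109308), the light chain that aids iron mineralization in the shell, was at 1960, 1886 and 1775 CPM in WT and at 3429, 3506 and 3250 CPM in the libraries labelled cKO. The groups did not overlap, and the log2 fold change was 0.86 (standard error 0.038, edgeR adjusted p = 4.81e-12). *Fth1* and *Ftl1* together took 0.994%, 0.99% and 0.937% of all counts in the WT libraries and 1.69%, 1.66% and 1.64% in the libraries labelled cKO. Each library labelled cKO thus gave over 1.6% of its counts to ferritin mRNA, and no WT library reached 1%.

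Both ferritin genes rose, and the balance between them was compared within each library. The ratio of *Fth1* to *Ftl1* counts was 4.09, 4.26 and 4.39 in WT and 3.87, 3.72 and 4.03 in the libraries labelled cKO, without overlap. The log2 ratio per kilobase was lower by a difference of -0.13 in the libraries labelled cKO (two-sided exact permutation test, p = 0.1, the smallest value this test can give with 3 against 3 libraries), so this test cannot pass 0.05 here. Ferritin has pseudogene copies that can take reads from both genes. The counts on the other genes of the table named *Fth* or *Ftl* amounted to 0.237% to 0.307% of the ferritin counts per library. *Ftl1-ps1*, the most counted of them, had a log2 fold change of 0.64 (edgeR adjusted p = 9.26e-06). Copies under other names and reads counted for no gene are not in this share. *Gm10252*, which overlaps *Ftl1* on the opposite strand, had 1583 to 3557 counts in WT libraries and 6787 to 8328 in the other group. The methods name a directional library kit, so the reads carry strand. The strand setting of the counting is not given in the sources used here, so the reads of *Ftl1* and *Gm10252* may not be fully separated.

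**Figure D2:**
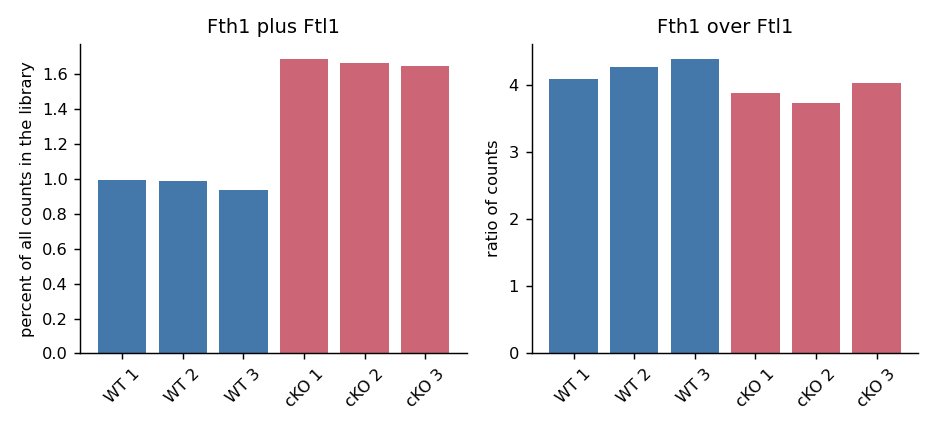
Left, share of all counts of each library taken by *Fth1* and *Ftl1* together, in percent; right, ratio of *Fth1* to *Ftl1* counts in the same 6 libraries (linear axes from 0; blue WT, red labelled cKO; 1 bar per library). The share lies between 0.937% and 0.994% in WT and between 1.64% and 1.69% in the libraries labelled cKO, whereas the ratio moved little, from 4.09 to 4.39 down to 3.72 to 4.03.

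*Slc40a1* (chr1:45947228-45965683) encodes ferroportin, the iron exporter of mammalian cells. It was at 9.58, 10.8 and 11.1 CPM in WT and at 42.0, 45.7 and 43.9 CPM in the libraries labelled cKO, which corresponds to 430 to 538 and 1767 to 1992 counts. The libraries of the genotypes were far apart. The log2 fold change was 2.06 (standard error 0.078, edgeR adjusted p = 4.59e-13), or 4.18-fold.

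*Cp* (chr3:20011218-20063309), the copper ferroxidase that helps load exported iron onto transferrin, was at 431.7, 452.4 and 446.7 CPM in WT and at 522.4, 505.9 and 533.5 CPM in the libraries labelled cKO. The groups did not overlap, and the log2 fold change was 0.23 (standard error 0.037, edgeR adjusted p = 7.48e-05). *Heph* (chrX:95498965-95618091), the membrane-bound ferroxidase of the same family and not among the 9 genes, moved the other way. *Heph* is X-linked, and genotype and sex cannot be told apart in these libraries. It was at 24.0, 21.1 and 25.0 CPM in WT and at 3.09, 2.24 and 2.88 CPM in the libraries labelled cKO, a log2 fold change of -3.09 (standard error 0.13, edgeR adjusted p = 1.48e-12). Per kilobase, *Heph* was at 0.066 of the level of *Cp* in WT and at 0.0066 of it in the libraries labelled cKO.

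*Ireb2* (chr9:54771073-54819814), the iron-regulatory protein that is degraded when iron is plentiful, was at 105.5, 96.5 and 90.2 CPM in WT and at 90.9, 91.1 and 94.6 CPM in the libraries labelled cKO. All 3 libraries labelled cKO lay within the range of WT. The log2 fold change was -0.08 (95% interval -0.20 to 0.037) and did not pass (edgeR adjusted p = 0.286). WT replicate 3 decided this call, since without it the log2 fold change was -0.14 with an edgeR adjusted p of 0.0323.

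**Figure D3:**
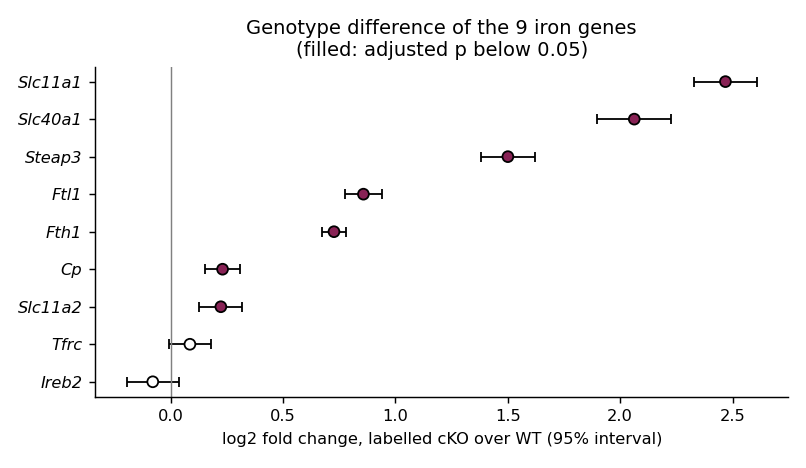
Log2 fold change of the libraries labelled cKO over WT for the 9 iron genes, with 95% intervals from the fit (points; filled where the adjusted p was below 0.05). *Slc11a1* (2.47), *Slc40a1* (2.06) and *Steap3* (1.50) lead, the ferritin genes follow at 0.86 and 0.73, and the intervals of *Tfrc* and *Ireb2* cross 0.

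Compared per kilobase of gene length, so that genes of different length can be set side by side, the WT level ran from 2289 CPM per kilobase for *Fth1* and 1398 for *Ftl1* through 46.4 for *Cp*, 21.2 for *Tfrc*, 18.2 for *Slc11a2* and 10.3 for *Ireb2* to 6.73 for *Steap3*, 6.72 for *Slc11a1* and 1.17 for *Slc40a1*. The libraries of neighbours in this order did not overlap except for *Steap3* and *Slc11a1*. In the libraries labelled cKO, *Slc11a1* was at 37.1 CPM per kilobase and stood between *Cp* at 54.4 and *Tfrc* at 22.5. There, *Tfrc* and *Slc11a2* (21.2) overlapped and every other neighbouring pair in the order was apart. *Slc40a1* was the lowest of the 9 in both genotypes, at 4.87 in the libraries labelled cKO. The lengths are those deposited in the table, 3469 bases for *Fth1*, and a length summed over all annotated exons understates the level of a gene whose main transcript is short.

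Of 56 other iron genes, listed by role, 50 were tested. At an adjusted p below 0.05, 21 were higher and 9 lower, while 39.3% of all tested genes passed in one direction or the other. The median log2 fold change of the 50 was 0.084. Among the genes of uptake, 7 of 13 tested were higher and 3 lower, beside 20.1% and 19.2% of all tested genes. *Scara5*, a scavenger receptor that can take up ferritin, had a log2 fold change of 2.92 (edgeR adjusted p = 1.94e-14) and went from 13.1 ± 2.35 to 99.1 ± 2.94 CPM (SD, n = 3 each). *Meltf*, melanotransferrin, was higher by 1.60 on the log2 scale (edgeR adjusted p = 5.07e-11). *Tfr2*, the second transferrin receptor and an iron sensor of liver and erythroid cells, fell from a WT mean of 4.27 ± 0.884 CPM to 0.766 ± 0.211 CPM (SD, n = 3 each), with a log2 fold change of -2.47 (edgeR adjusted p = 5.88e-07). The metalloreductases of the STEAP family split, with *Steap4* higher by 0.82 and *Steap1* and *Steap2* at -0.63 and -0.52, each past the threshold, beside the 1.50 of *Steap3*. *Lcn2*, which binds siderophores and is known as a gene of the response to LPS, was at 1164 ± 28.9 CPM in WT and 1741 ± 50.2 CPM in the other group (SD, n = 3 each), a log2 fold change of 0.58 (edgeR adjusted p = 1.87e-10). The carriers of iron not bound to transferrin, *Slc39a14* and *Slc39a8*, were higher by 0.26 and 0.63 on the log2 scale, and *Trf*, transferrin itself, had a value of -0.20 and did not pass.

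**Figure D4:**
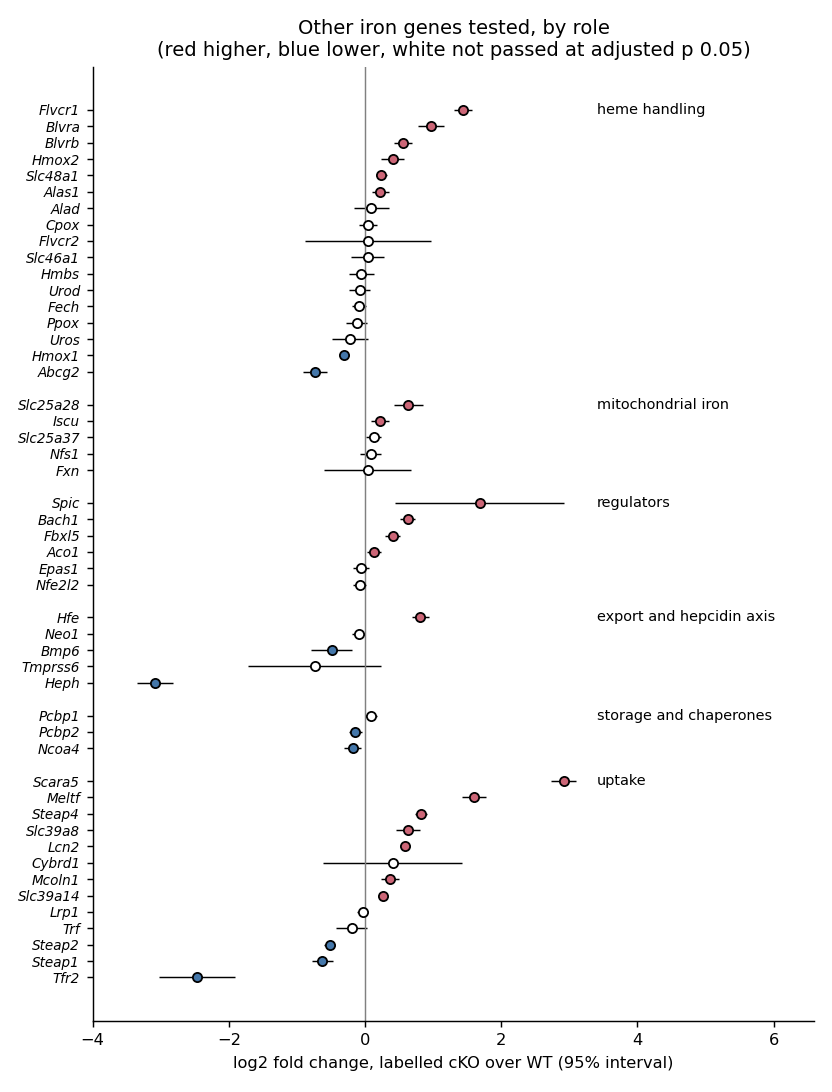
Log2 fold change, labelled cKO over WT, of 49 of the 50 tested genes of the other iron genes, grouped by role, with 95% intervals (red higher, blue lower, white not passed at an adjusted p of 0.05). *Scara5* (2.92) and *Heph* (-3.09) are the farthest from 0, and most genes of heme synthesis lie near 0.

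Of the genes that store or chaperone iron, *Ncoa4*, the receptor that delivers ferritin to the lysosome, was slightly lower (log2 fold change -0.18, edgeR adjusted p = 0.0175) in the libraries in which *Fth1* and *Ftl1* were higher. *Pcbp2*, an iron chaperone, was also lower (-0.15, adjusted p = 0.0143), *Pcbp1* had a value of 0.09 and did not pass, and the mitochondrial ferritin *Ftmt* was at 0 counts in every library. Of the 5 tested genes of export and the hepcidin side, *Heph* among them, 1 was higher and 2 were lower, beside 20.1% and 19.2% of all tested genes. *Hamp*, which encodes the hormone that removes ferroportin from the membrane, had at most 4 counts in a library and *Hjv* had 0. *Hfe*, the hemochromatosis gene, was at 28.6 ± 0.981 CPM in WT and 50.1 ± 2.32 CPM in the libraries labelled cKO (SD, n = 3 each), a log2 fold change of 0.81 (edgeR adjusted p = 5.54e-09). *Bmp6*, which induces hepcidin in the liver, was lower, at 9.54 ± 1.25 CPM in WT and 6.76 ± 1.03 CPM in the other group (SD, n = 3 each), a log2 fold change of -0.49 (edgeR adjusted p = 0.00954).

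Among 6 regulators, 4 were higher and 0 lower, beside 20.1% and 19.2% of all tested genes, and 2 of the 4 calls, those of *Aco1* and *Spic*, were lost when certain single libraries were left out. *Fbxl5*, the iron-sensing ubiquitin ligase that marks the Ireb2 protein for degradation, had a log2 fold change of 0.40 (edgeR adjusted p = 6.62e-06). *Bach1*, a heme-sensing repressor of *Hmox1* and the ferritin genes, had a log2 fold change of 0.62, and *Nfe2l2*, an activator of the same genes, one of -0.08 that did not pass. *Aco1*, the other iron-regulatory protein, had a value of 0.13 with an edgeR adjusted p of 0.0471, and its call was lost without any single library other than WT replicate 3 (adjusted p from 0.0698 to 0.212). *Spic*, a factor of iron-recycling macrophages, had 2 to 34 counts in WT libraries and 38 to 48 in the other group. Its log2 fold change was 1.68 (adjusted p = 0.0306), and without WT replicate 2 it was 3.07, while leaving out any other library took the adjusted p to between 0.059 and 0.117.

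In heme handling, 6 of 17 genes were higher and 2 lower, beside 20.1% and 19.2% of all tested genes. *Flvcr1*, described as a heme exporter of the plasma membrane, was higher by 1.44 on the log2 scale (edgeR adjusted p = 3.67e-12), from 22.0 ± 1.56 to 59.6 ± 0.367 CPM (SD, n = 3 each). The biliverdin reductases *Blvra* and *Blvrb* were higher by 0.96 and 0.56, whereas *Hmox1*, which opens the heme ring and frees its iron, was lower by a log2 fold change of -0.31 (adjusted p = 1.1e-06), from 1487 ± 48.6 to 1201 ± 28.2 CPM. The ferritin genes and *Hmox1* thus moved in opposite directions between these libraries. Among 6 genes of mitochondrial iron, 3 were higher and 0 lower, among them *Slc25a28*, an iron importer of mitochondria, at 0.63 on the log2 scale. Of the 8 enzymes of heme synthesis in the list, *Alas1* was higher (0.23, adjusted p = 0.00691) and the other 7, from *Alad* to *Fech*, had values from -0.22 to 0.088 and did not pass.

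All 15 tested macrophage markers and 7 of the 9 iron genes were higher in the libraries labelled cKO, beside 20.1% of all tested genes. The summed level of the 16 markers was 1209 to 1363 CPM in WT and 6441 to 6761 CPM in the libraries labelled cKO. The ratio of the means was 5.13, beside the folds of 5.53 for *Slc11a1*, 4.18 for *Slc40a1*, 2.83 for *Steap3*, 1.81 for *Ftl1* and 1.65 for *Fth1*. *Cp* and *Slc11a2* were at 1.17-fold each, and *Tfrc* and *Ireb2*, which did not pass, at 1.06 and 0.946. Of the 16 markers, *Cx3cr1* was too low to be tested, and *Lyz2*, at 921 to 1030 CPM in WT, made up most of the sum. Set against that sum, *Slc11a1* was at 1.92% ± 0.177 in WT and 2.07% ± 0.082 in the libraries labelled cKO, and their ranges overlapped. *Slc40a1* was at 0.81% ± 0.017 and 0.661% ± 0.018, and *Steap3* at 2.98% ± 0.265 and 1.64% ± 0.074 (SD, n = 3 each), both lower in the libraries labelled cKO without overlap. Without *Lyz2*, an alternative chosen after the values were seen, the summed level was 288 to 333 CPM in WT and 2050 to 2159 CPM in the libraries labelled cKO, a ratio of 6.86, and *Slc11a1* was then at 8.05% ± 0.577 of the sum in WT and 6.49% ± 0.269 in the other group, so its place relative to the markers depends on *Lyz2*. Markers of other cell types moved in the same comparison, in which 20.1% of all tested genes were higher and 19.2% lower. Of 5 tested osteoblast markers, 2 were higher, *Ibsp* by 2.01 and *Alpl* by 0.68 on the log2 scale. The 3 lower ones were *Col1a1* at -0.67, *Spp1* at -0.64 and *Sp7* at -0.59. The summed level of the osteoblast markers was 13562 to 15401 CPM in WT and 9043 to 9260 CPM in the other group. *Col1a1* and *Spp1* made up most of that sum. Of 6 tested osteoclast markers, *Acp5* and *Atp6v0d2* were higher, by 1.24 and 1.84, and *Mmp9* and *Ctsk* lower, at -2.83 and -0.41, with a summed level of 143.0 to 152.4 CPM in WT and 150.5 to 181.4 CPM in the other group. Of 5 endothelial markers, 4 were lower and *Kdr* was higher, with a median log2 fold change of -3.08 at low levels, 6.41 to 6.84 CPM in sum in WT and 6.32 to 6.71 CPM in the other group. *Heph* (-3.09) and *Tfr2* (-2.47) fell in the same comparison as *Mmp9* and the 4 endothelial markers, in which *Acp5*, *Atp6v0d2* and *Kdr* rose. With an adjusted p below 0.05 and a log2 fold change of at most -1, 4.64% of all tested genes were lower. The part of macrophages, or of any of these cell types, in the differences of the iron genes was not tested.

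**Figure D5:**
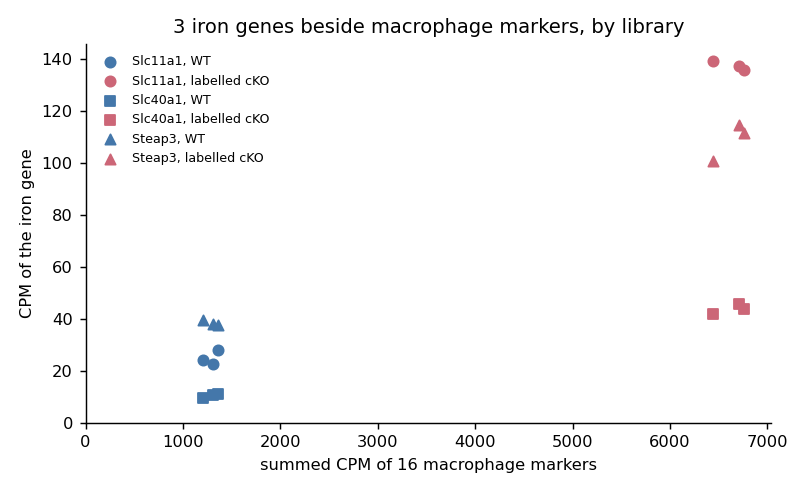
CPM of *Slc11a1* (circles), *Slc40a1* (squares) and *Steap3* (triangles) against the summed CPM of 16 macrophage markers in the same library (blue WT, red labelled cKO; linear axes from 0; 1 point per library). The WT libraries sit at 1209 to 1363 CPM of markers and the libraries labelled cKO at 6441 to 6761 CPM, with no library between them, so the points form 2 clusters and no correlation is given over them.

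For *Slc11a1*, the member with the largest change, the tested genes with the most similar pattern over the 6 libraries (Pearson's r of log2(CPM + 0.5), a description) were *Tcirg1*, *Fermt3* and *Hcls1*, each with r over 0.99. *Tcirg1* encodes a subunit of the proton pump of lysosomes and osteoclasts, and *Fermt3* and *Hcls1* are expressed in blood-forming cells. The points share 2 genotype clusters, and 617 tested genes had r over 0.99 with *Slc11a1*. *Tcirg1* went from 62.1 to 68.6 CPM in WT to 154.4 to 159.4 CPM in the libraries labelled cKO, a smaller step than that of *Slc11a1*. No member was called lower, so no gene is named for that direction.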

How the data were processed

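Reads of 150 bp in pairs were trimmed by the authors, mapped to GRCm39 (mm39) by HISAT2 2.0.5 and counted per gene by featureCounts, for which the labels give release 1.55.0-p3 and the methods another. They deposited raw counts per gene with coordinates and a gene length, and those counts were not normalized. Counts from 1 to 10 were even in 63.4% to 65.7% of cases, as when both mates are counted.

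Genotypes were compared on these counts by edgeR 4.0.16 under R 4.3.3 (filterByExpr, TMM, glmQLFit, glmQLFTest, genotype as the only term) over all 17146 tested genes, with Benjamini-Hochberg adjustment. CPM are counts per 1000000 of the TMM-scaled library size. Intervals are 95% t intervals. Replicates differed by more than sampling noise, with a chi-square per gene of 4.88 to 13.9. The 3 counts that a count of 0 allows cover counting error only and take counts as independent, so the bound is larger if both mates were counted. Iron-responsive elements were searched in GENCODE M39 transcripts. The alternatives were DESeq2 1.42.0, other scaling, other filters, halved counts, replicate number as a block and each library left out. Named were the 9 members, other iron genes past a log2 fold change of 1 or fixed by name, and genes most like *Slc11a1*. Other genes of the list were named after their values were seen. The members and lists were chosen with earlier results of these data known. Whether the counting used the strand of the directional libraries could not be checked. For 1 gene of the list, counted with it, no value is reported here.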

Additional observations from a re-analysis of the deposited data

How the results depend on the processing

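The number of iron genes called higher was 7 under every alternative scaling, filter and test and without any single library, and 3 when a log2 fold change of at least 1 was also required. The number called lower was 0, and ranged from 0 to 1 with 1 library left out, the 1 being *Ireb2* without WT replicate 3 (log2 fold change -0.135, range -0.135 to -0.033). Of the 50 other iron genes tested, requiring that fold change left 4 higher and 2 lower, beside 6.56% and 4.64% of all tested genes. Leaving out 1 library gave 18 to 21 higher and 7 to 10 lower. *Aco1* lost its call with DESeq2, RLE factors, no filter and the block as well. Every one of the 9 genes kept its direction under all alternatives. The difference in the *Fth1* to *Ftl1* log2 ratio, libraries labelled cKO minus WT, lay between -0.16 and -0.102 with 1 library left out. Same-numbered libraries of the genotypes did not deviate together (correlations of -0.0055, 0.0023 and -0.010). No pairing by number was seen, though 3 libraries per genotype are few to detect one. With replicate number as a block, 7 iron genes were higher and 0 lower, and log2 fold changes were 2.47 for *Slc11a1* and 2.06 for *Slc40a1*. Genotype, sex and macrophage marker level cannot be told apart with these libraries.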
